A study of Rattus norvegicus with 10 samples.

Results

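The nuclear-encoded subunits of the 4 respiratory chain complexes and of ATP synthase were examined in splenic M2 macrophages of rats. The members were the genes whose symbols begin with Nduf followed by a subunit letter and number, Sdha to Sdhd, Uqcr, Cox4 to Cox8, or Atp5. This rule found 72 of the 9003 genes in the table, namely 32 of complex I, 4 of complex II, 8 of complex III, 11 of complex IV and 17 of complex V (ATP synthase). Ndufa4 was counted with complex I by its symbol, although the protein is now assigned to complex IV, and Cox7a2l, Atp5s and Atp5sl carry family symbols but are assembly or regulatory factors rather than classical subunits. The subunits encoded by mitochondrial DNA were not analysed here, nor were Cox4i2, Cox6b1, Cox6b2, Cox7a1, Cox8b and Ndufa4l2.

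The respiratory chain passes electrons from NADH and succinate through complexes I and II, coenzyme Q, complex III and cytochrome c to oxygen at complex IV. Complexes I, III and IV pump protons across the inner mitochondrial membrane, and complex V uses the gradient to make ATP. Most subunits are encoded in the nucleus and imported into mitochondria, where they assemble with the few that mitochondrial DNA encodes, and macrophages adjust their use of this pathway with their activation state.

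Bulk RNA was sequenced in 10 libraries of macrophages from the spleens of WKY /Ncrj rats, for which the study's methods give young adult females. Control macrophages came from rats under physiological conditions (n = 2). The GN group came from rats with glomerulonephritis induced by a monoclonal antibody against the glomerular basement membrane, with no cell treatment (n = 2). The EV+ (n = 3) and EV- (n = 3) groups came from nephritic rats injected with human adipose-derived mesenchymal stem cells (ASCs) whose membranes carried the dye DiD, and the macrophages were sorted by whether they had taken up DiD, the sign of transferred extracellular vesicles (EVs). EV+ and EV- therefore share nephritis and ASC treatment and were separated by DiD. The paper proposes that EVs may also have touched DiD-negative macrophages for a short time, and transcripts of other cells differed between the 2 groups (below). The methods call the libraries biological replicates, but the labels tie none of them to an animal, so p-values measure the spread between these libraries.

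The values are TMM-normalized CPM, reads of a gene scaled to the size of the library, a scale on which the level of 1 gene can be compared between libraries. CPM are not divided by transcript length, and no lengths were used here, so an order of genes by CPM is not an order by amount of transcript. Libraries held between 19270515 and 26617093 reads on the genes of the table, and 3 reads, taken as the floor of detection, corresponded to between 0.113 and 0.153 CPM. Each member was above 0 in every library, and 68 of the 72 had a mean of at least 5 CPM, the others being Atp5s, Cox6a2, Ndufs5 and Ndufs6. The macrophage markers Csf1r (5800 to 8155 CPM) and Cd68 (1163 to 1466 CPM) were high in all libraries. The M2-associated Cd163 (0 to 1.81 CPM) and Mrc1 (0 to 1.81 CPM) were at or near 0, which goes against the M2 label at the level of these transcripts only. The label comes from flow cytometry, and the paper reports more IL-10 and less IL-6 and CCR2 in cells sorted as M2 than in those sorted as M1. The series has no M1 library to compare. In bulk RNA, fewer cells of a type and less RNA per cell cannot be told apart.

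No member passed the test in any of the 6 pairwise comparisons of the 4 groups, or in the F test over all groups (limma on log2 of CPM plus 1, Benjamini-Hochberg FDR under 0.1 over all 9003 genes). The F test called 2.57% of all genes. In it, 6 members had an unadjusted p under 0.05, namely Ndufa7, Atp5e, Ndufs1, Ndufa8, Cox7a2l and Atp5a1, and the smallest adjusted p of a member was 0.340. The edgeR quasi-likelihood test and DESeq2 also called 0 members over the 4 groups, with 4 and 6 members at an unadjusted p under 0.05.

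The members moved together from library to library. Replicate 2 of EV+ was the lowest of the 10 libraries for 55 of the 72 members (76.4%), against 16.1% of all genes, and 68 members were below their own mean there. Its members lay on average 0.267 log2 units below their means over the libraries (mean deviation -0.267). Replicate 2 of EV- deviated in the same direction by less, with a mean deviation of -0.105 and 66 members below their mean. Replicate 2 of control lay at the other end, with a mean deviation of 0.149 and the highest value of all libraries for 38 members (52.8%), against 14.1% of all genes. The remaining 7 libraries had mean deviations between -0.0122 and 0.0731. As a share of the summed CPM of the genes in the table, the 72 members made up 0.784% of replicate 2 of EV+ and between 0.828% and 0.923% of the other libraries.

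**Figure D1:**
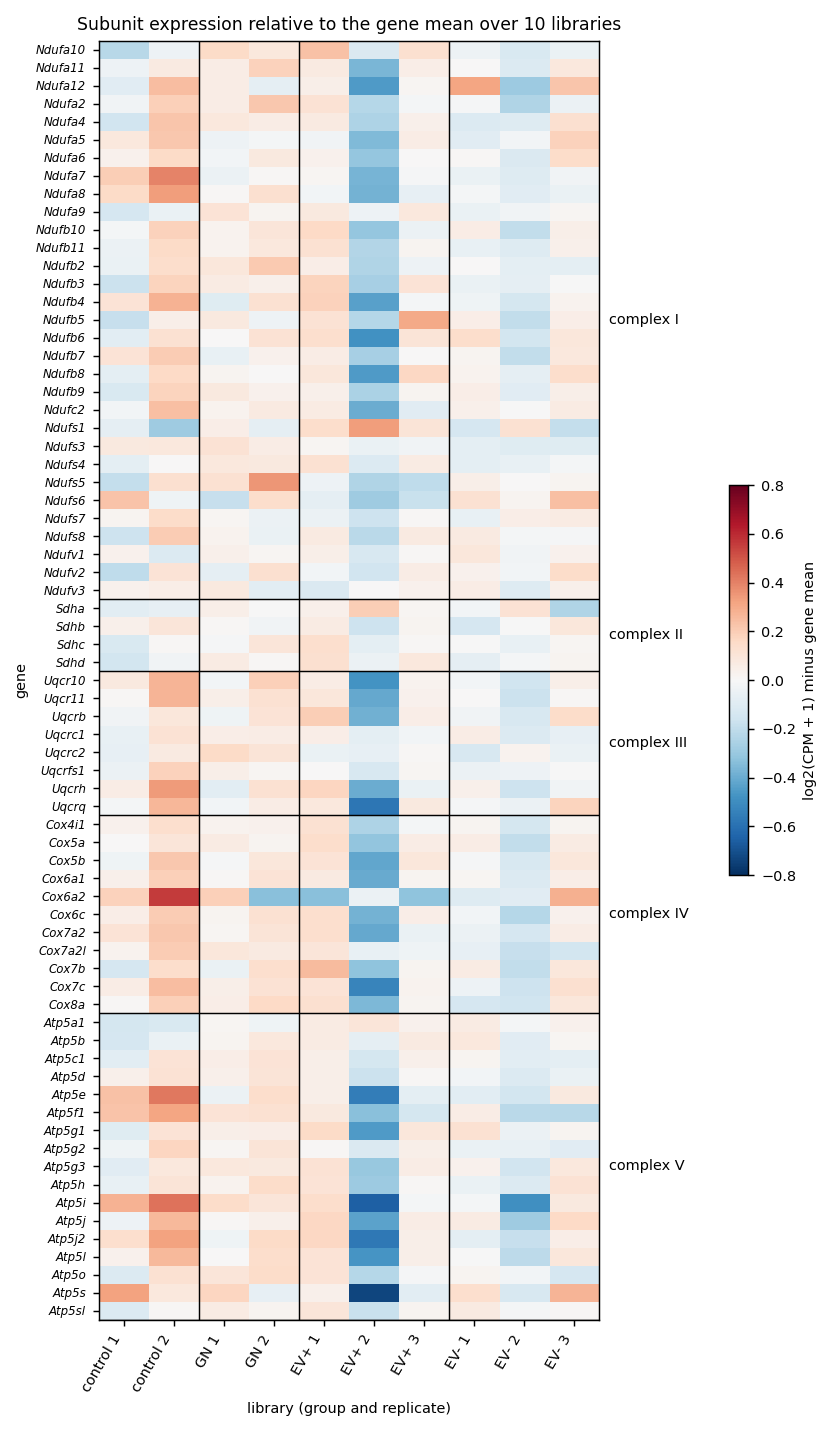
Heat map of log2(CPM + 1) minus the gene's mean over the 10 libraries, with 71 of the members as rows grouped by complex and the libraries as columns grouped as control, GN, EV+ and EV-. The column of EV+ replicate 2 is blue for most members (68 of all 72 members were below their mean) and that of control replicate 2 is mostly red, while Ndufs1, Sdha and Atp5a1 are above their mean in EV+ replicate 2.

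The complexes took unequal part in this. In replicate 2 of EV+, the mean deviation was -0.235 for complex I, -0.315 for complex III, -0.317 for complex IV and -0.329 for complex V, but -0.0226 for complex II, the succinate dehydrogenase that also works in the citric acid cycle. All 11 members of complex IV and all 8 of complex III were below their mean in this library, as were 30 of 32 in complex I, 16 of 17 in complex V and 3 of 4 in complex II. In replicate 2 of control the order was similar, with 0.218 for complex IV, 0.201 for complex III, 0.162 for complex V, 0.123 for complex I and 0.0025 for complex II. Complex II has 4 members only, and its mean in replicate 2 of EV+ joined opposite directions. In that library Sdha was at its highest of all libraries (260.2 CPM) and Sdhb at its lowest (147.5 CPM). No test of the difference between complexes was made.

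**Figure D2:**
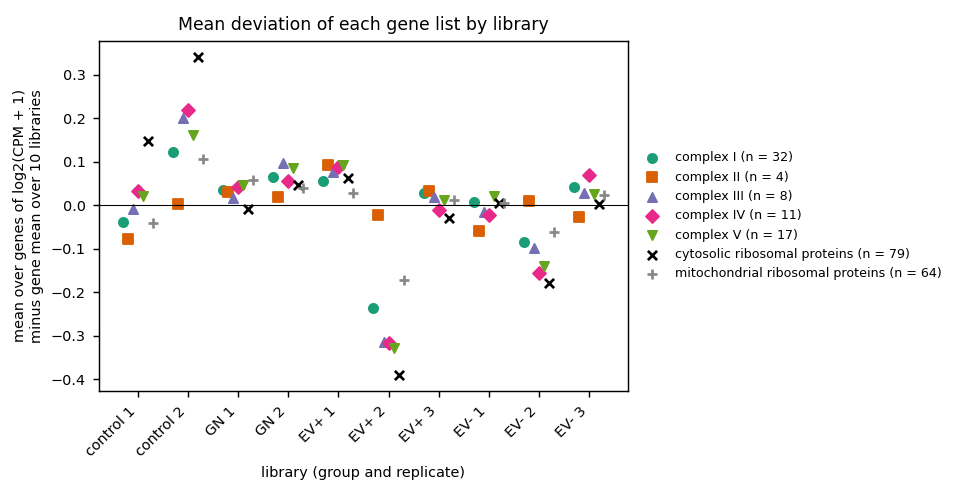
Mean over the genes of each list of log2(CPM + 1) minus the gene mean (vertical axis) for each library (horizontal axis), with coloured symbols for the complexes and crosses for ribosomal protein genes. Complexes I, III, IV and V lie between -0.235 and -0.329 in EV+ replicate 2, and the cytosolic ribosomal proteins lie at -0.391. The mean of complex II lies at -0.0226 there, with Sdha at its highest and Sdhb at its lowest of all libraries.

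The same libraries stood apart for genes outside the respiratory chain. The 79 genes for cytosolic ribosomal proteins, had mean deviations of -0.391 in replicate 2 of EV+, -0.179 in replicate 2 of EV- and 0.342 in replicate 2 of control. For the 64 genes for mitochondrial ribosomal proteins, which translate the mitochondrially encoded subunits, these values were -0.172, -0.0618 and 0.106. The part of whatever moves these lists together in the values of the subunits was not tested. The 13 macrophage markers summed to 11660 CPM in replicate 2 of EV+ and to between 8835 and 10930 CPM elsewhere, sums that weigh each gene by its CPM. By the measure used for the other lists, their mean deviation in replicate 2 of EV+ was -0.0694 (median -0.111), with 7 of 13 below their mean. It was -0.152 in replicate 2 of EV- and -0.219 in replicate 2 of control. Replicate 2 of EV+ held 23256708 reads on the genes of the table, and the part of depth was not tested.

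The 14 members listed as core subunits, most of which carry catalytic or redox centres, deviated less. They included Ndufs1, Ndufs3, Ndufs7, Ndufs8, Ndufv1 and Ndufv2 of complex I, Sdha and Sdhb of complex II, the Rieske iron-sulfur protein Uqcrfs1 of complex III, Cox4i1 and Cox5a of complex IV, and the alpha and beta subunits Atp5a1 and Atp5b of the catalytic F1 part of ATP synthase. In replicate 2 of EV+ their mean deviation was -0.0778 (median -0.129), against -0.313 (median -0.315) for the other 58 members. In replicate 2 of control it was 0.0309, against 0.177 for the others. Of the core members, 11 of 14 were below their mean in replicate 2 of EV+, 7 were at their lowest there and 3 at their highest. The split is a description of these lists, with no test of the difference.

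**Figure D3:**
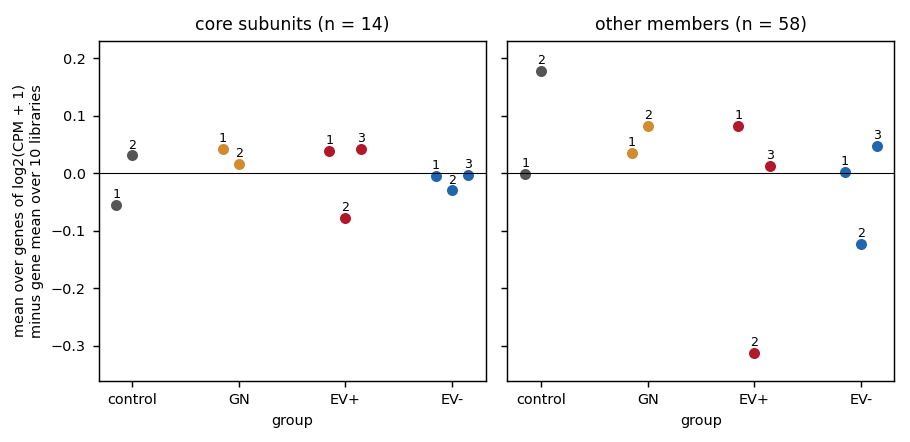
Mean deviation of log2(CPM + 1) from the gene mean (vertical axis) for the 14 core subunits and the 58 other members, by group (horizontal axis), with each point a library and its replicate number above it. The other members spread from -0.313 in EV+ replicate 2 to 0.177 in control replicate 2, whereas the core subunits lie between -0.0778 and 0.0427.

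The comparison of GN with control asks how nephritis changes splenic macrophages before any treatment. None of the 72 members passed the test, against a background of 1.75% of all genes, and 1 member had an unadjusted p under 0.05 against 10.4% of all genes. The median log2 fold change was -0.0077, with 38 members lower in GN and 34 higher, and 50.1% of all genes were lower. By complex, the median log2 fold change was 0.015 for complex I, 0.10 for complex II, -0.047 for complex III, -0.053 for complex IV and -0.0035 for complex V. Both GN libraries were below both control libraries for 11 members and above them for 11, against 22.0% and 21.9% of all genes. In the same comparison 78 of the 79 cytosolic ribosomal protein genes were lower (median -0.22, none called). All 10 early-response and heat shock genes listed as signs of tissue dissociation were lower too (median -0.75, 2 called). The part of either list in the values of the subunits was not tested.

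The member nearest to a change was Ndufa7, an accessory subunit of complex I, at 50 and 57.4 CPM in the control libraries against 42.0 and 43.8 CPM in the GN libraries. The groups did not overlap, and the log2 fold change was -0.31 ± 0.14 (SE), with an adjusted p of 0.436. At the other end of complex I, the accessory subunit Ndufa10 had a log2 fold change of 0.25. In complex II the extremes were the iron-sulfur subunit Sdhb (-0.078) and the membrane anchor Sdhd (0.13). Complex III ran from the hinge protein Uqcrh (-0.18) to the core protein Uqcrc2 (0.13). The extremes of complex IV were Cox7a2 (-0.11) and Cox7b (0.039), both small accessory subunits, and those of ATP synthase were the epsilon subunit Atp5e (-0.28) and the catalytic beta subunit Atp5b (0.15).

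These differences were small and turned on the control library used. With control replicate 1 alone, 52 of the 72 members were higher in GN (median 0.075), whereas with control replicate 2 alone 54 were lower (median -0.10). The 95% interval of the log2 fold change was within 1 unit of 0 for 71 of the 72 members and within 0.5 units for 58, so that changes of 2-fold were outside the interval for all but 1 of them.

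**Figure D4:**
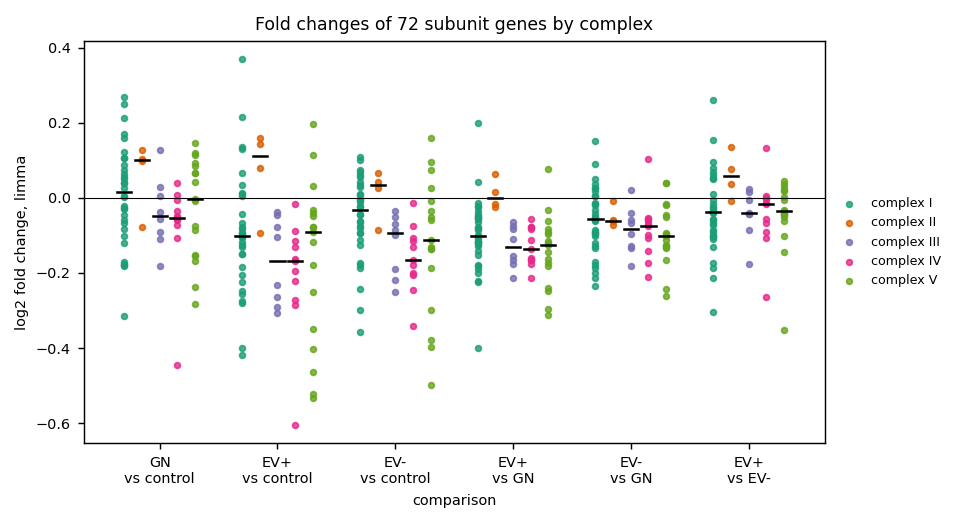
Fitted log2 fold change (vertical axis) of each member, a point coloured by complex, in the 6 comparisons of groups (horizontal axis), with black bars at the median of each complex. Medians of complexes III and IV lie below 0 in all 6 comparisons, and no point passed the test.

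EV+ macrophages were compared with control macrophages, which differ from them by nephritis, ASC treatment and EV uptake together. No member passed the test, against 3.63% of all genes. At an unadjusted p under 0.05 there were 10 members, against 15% of all genes, and the smallest adjusted p was 0.109. Lower means prevailed, with 57 members lower and 15 higher against 50% of all genes lower, and a median log2 fold change of -0.10. All 8 members of complex III and all 11 of complex IV had lower means in EV+ (medians -0.17 and -0.17), as did 23 of 32 in complex I (-0.10) and 14 of 17 in complex V (-0.091). In complex II, 3 of the 4 had higher means (median 0.11).

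The direction depended on single libraries. Without EV+ replicate 2 the members split into 40 lower and 32 higher, with a median of -0.025. Without control replicate 2 they split into 41 lower and 31 higher, with a median of -0.032. The median was further from 0 without control replicate 1 (-0.21) or EV+ replicate 1 (-0.18). All 3 EV+ libraries were below both control libraries for 13 members and above them for 4, against 15.6% and 14.9% of all genes. The 14 core members divided evenly (7 lower and 7 higher, median -0.017), and of the other 58, 50 were lower (median -0.13). Beside this, 78 of the 79 genes for cytosolic ribosomal proteins were lower in EV+ than in control, 10 of them past the threshold, with a median of -0.37. The 10 early-response and heat shock genes listed as signs of tissue dissociation were also all lower, 9 of them past the threshold, with a median of -1.73. The part of either list in the values of the subunits was not tested.

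The members nearest to the threshold included genes with lower means. Atp5e, the epsilon subunit in the central stalk of ATP synthase, had 68.8 and 78.6 CPM in control, 56.4 and 64.5 in GN, 60.4, 39.5 and 55.3 in EV+, and 55.1, 52.6 and 61.9 in EV-. Both control libraries were above all other libraries, among which GN, EV+ and EV- overlapped. The log2 fold change of EV+ against control was -0.52 ± 0.15 (SE, 95% interval -0.85 to -0.19), with an adjusted p of 0.109. Of the 19 alternative settings, 4 brought it under 0.1, and the adjusted p ranged from 0.0419 to 0.557.

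Ndufa7 had 44.0, 33.3 and 43.1 CPM in EV+ and 41.9, 40.3 and 42.5 in EV-. All 8 libraries of nephritic rats were thus below the controls given above, with a log2 fold change of -0.42 ± 0.13 in EV+ and an adjusted p of 0.120. Ndufa8, a complex I accessory subunit of the intermembrane space, had 43.8 and 49.9 CPM in control and 38.8, 30.0 and 37.5 in EV+. Its groups did not overlap, and the log2 fold change was -0.40 ± 0.12 with an adjusted p of 0.133. Further members with lower means at an unadjusted p under 0.05 were Atp5i (-0.53), the e subunit of the membrane part of ATP synthase, Atp5f1 (-0.40), its b subunit, Uqcr10 (-0.31) of complex III, and Cox6a2 (-0.61) and Cox7a2 (-0.27) of complex IV.

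Of the 15 members with higher means in EV+, Ndufs1 and Atp5a1 had an unadjusted p under 0.05. Ndufs1, the largest iron-sulfur subunit of complex I, had 69.0 and 59.4 CPM in control, 75.3 and 69.1 in GN, 80.0, 91.7 and 78.0 in EV+, and 65.8, 79.1 and 63.4 in EV-. Every EV+ library was above both control and both GN libraries, with EV- overlapping all groups. The log2 fold change against control was 0.37 ± 0.12 (95% interval 0.12 to 0.62) with an adjusted p of 0.139. Replicate 2 of EV+, in which most members were lowest, held the highest Ndufs1 value of all libraries. Atp5a1, the alpha subunit of F1, had 542 and 550 CPM in control, 604 and 584 in GN, 626, 640 and 612 in EV+, and 626, 591 and 613 in EV-. Controls were below all 8 libraries of nephritic rats, and the log2 fold change of EV+ was 0.20 ± 0.064 with an adjusted p of 0.153.

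The other extremes were Sdha, the flavoprotein of complex II, at 0.16, and Sdhb at -0.094. Complex III ran from Uqcr10 to Uqcrc2 (-0.038), and complex IV, among members of at least 5 CPM, from Cox7c (-0.29) to Cox7b (-0.017). Count tests on the recovered reads differed in their calls. The edgeR quasi-likelihood test called 0 members, with 7 at an unadjusted p under 0.05, while DESeq2 called 5 members (background 6.0%), with Atp5a1 and Ndufs1 higher and Atp5e, Ndufa7 and Ndufa8 lower. With the replicate number as a block, which here ties control to EV+ libraries of different rats that share only a number, 2 members passed (background 4.21%), Atp5e (adjusted p 0.0840) and Ndufs1 (adjusted p 0.0965). With genes under a mean of 5 CPM removed, Atp5e passed (adjusted p 0.0972, background 4.66%), and without EV+ replicate 1 Atp5e, Ndufa7 and Ndufa8 passed (adjusted p 0.0419, 0.0784 and 0.0898, background 4.33%). Over the 19 alternatives the adjusted p ranged from 0.054 to 0.617 for Ndufa7, from 0.068 to 0.631 for Ndufa8, from 0.0773 to 0.664 for Ndufs1 and from 0.0471 to 0.461 for Atp5a1.

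**Figure D5:**
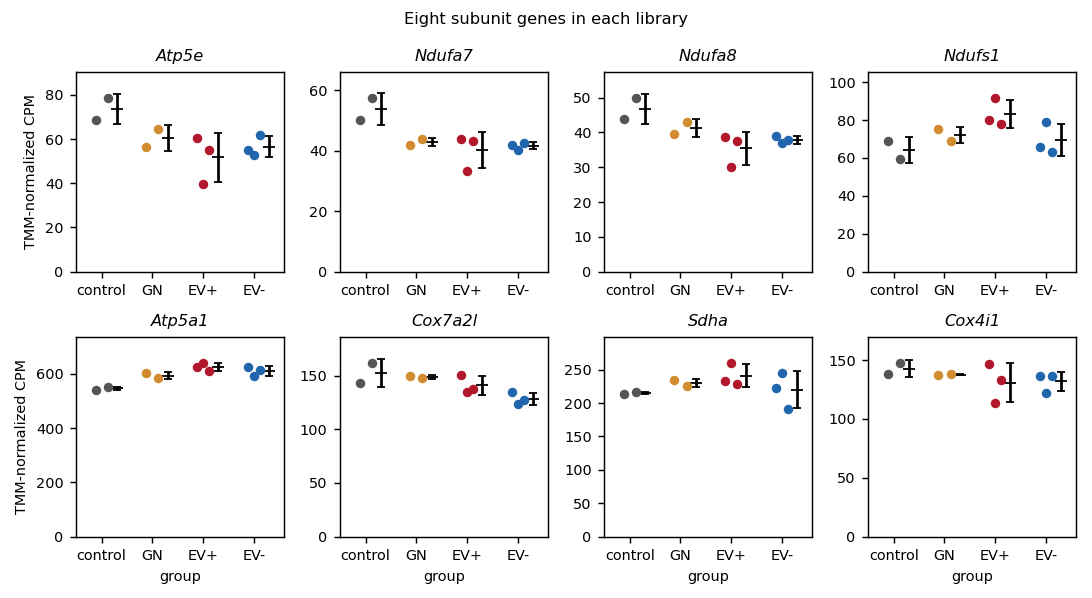
TMM-normalized CPM (vertical axes, from 0) of 8 members in each library, as points by group, with a bar at the group mean and whiskers of 1 SD. Controls are the highest group for Atp5e, Ndufa7 and Ndufa8 and the lowest for Atp5a1, and Ndufs1 is highest in EV+ (83.2 ± 7.39 CPM, n = 3).

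The promoters of 4 members are shown as examples, Atp5e and Atp5i with lower means and Ndufs1 and Atp5a1 with higher means in EV+ than in control at an unadjusted p under 0.05, chosen after their values were seen. They are 150 bases up to the start of transcription in RefSeq (build GRCr8), written from 5′ to 3′ along the gene's strand, with motif matches in capitals. Atp5e lies on chr3:183680173-183680322 (minus strand), Atp5i on chr14:1464710-1464859 (plus strand), Atp5a1 on chr18:73567387-73567536 (plus strand) and Ndufs1 on chr9:72073606-72073755 (minus strand). RefSeq lists the first 3 as Atp5f1e, Atp5me and Atp5f1a.
Atp5e: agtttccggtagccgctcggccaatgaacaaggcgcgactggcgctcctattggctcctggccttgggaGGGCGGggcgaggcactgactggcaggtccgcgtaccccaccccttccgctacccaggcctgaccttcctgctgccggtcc
Atp5i: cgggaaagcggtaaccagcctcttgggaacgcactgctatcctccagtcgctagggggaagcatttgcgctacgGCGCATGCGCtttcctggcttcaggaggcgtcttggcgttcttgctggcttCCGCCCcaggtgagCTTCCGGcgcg
Atp5a1: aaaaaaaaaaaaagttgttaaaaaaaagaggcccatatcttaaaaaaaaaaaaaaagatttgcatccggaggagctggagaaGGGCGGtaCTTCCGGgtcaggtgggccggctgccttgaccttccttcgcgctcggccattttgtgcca
Ndufs1: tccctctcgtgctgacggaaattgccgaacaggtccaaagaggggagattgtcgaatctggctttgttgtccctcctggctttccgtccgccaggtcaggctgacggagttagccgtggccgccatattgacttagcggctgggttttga

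In these windows, Atp5i holds an NRF-1 motif that matches on both strands over overlapping bases, an SP1 motif and an ETS motif, Atp5a1 an SP1 and an ETS motif, Atp5e an SP1 motif, and Ndufs1 none of those searched. Over the whole set, 63 of the 72 members were matched to a RefSeq promoter of 300 bases (250 before to 50 after the start), 48 by symbol and 15 by synonym. The motifs were searched on both strands. The NRF-1 letters GCATGCGC were in 12.7% of the members' promoters and in 2.66% of all 27457 promoters, and the YY1 letters AAGATGGC in 22.2% and 3.44%. The ETS letters CCGGAAG were in 28.6% against 9.22%, the SP1 letters GGGCGG in 39.7% against 34.9%, and the ERR letters TCAAGGTCA in 3.17% against 0.412%. Among 6922 other genes of the table these shares were 5.62% (NRF-1), 6.28% (YY1), 20.3% (ETS), 64.1% (SP1) and 0.188% (ERR). In the promoters of 300 bases, which give the members' shares, Ndufs1 held an ETS match and Atp5i a YY1 match. The shorter windows shown for these genes lack those matches. A match describes the letters only.

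In EV- macrophages against control, which share those control libraries, no member passed the test (background 2.84%), and 7 had an unadjusted p under 0.05 against 13.1% of all genes. Means were lower for 54 members and higher for 18, with a median of -0.076, and 48.6% of all genes were lower. The medians were -0.034 for complex I, 0.034 for complex II, -0.093 for complex III, -0.17 for complex IV and -0.11 for complex V. Again all 8 members of complex III and all 11 of complex IV had lower means. All 3 EV- libraries were below both controls for 17 members and above them for 2, against 14.1% and 15% of all genes. Without control replicate 2, however, 34 members were lower and 38 higher, with a median of 0.0050. The median was -0.17 without control replicate 1 and -0.042 without EV- replicate 2. Cytosolic ribosomal protein genes were lower for 78 of 79, 3 of them past the threshold, and 6 of the 10 dissociation genes were called lower; their part was not tested.

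Cox7a2l, a factor that joins complexes III and IV into supercomplexes, had the smallest adjusted p of the members in this comparison. It had 143 and 162 CPM in control, 150 and 148 in GN, 151, 135 and 138 in EV+, and 135, 124 and 127 in EV-. The EV- libraries were below all others, but barely below EV+, with 134.7 CPM in replicate 1 of EV- and 134.9 CPM in replicate 2 of EV+. The log2 fold change against control was -0.25 ± 0.085 with a limma adjusted p of 0.210. Ndufa7 (-0.36, adjusted p 0.217) was the lowest member of complex I and Ndufs1 (0.11) the highest. Complex II ran from Sdhb (-0.085) to Sdhd (0.065), complex III from Uqcrh (-0.25) to Uqcrb (-0.036), and complex IV from Cox7a2l to Cox7b (-0.014). ATP synthase ran from Atp5i (-0.50) to Atp5a1 (0.16), and Atp5e (-0.38), Ndufa8 (-0.30) and Atp5f1 (-0.40) had lower means at an unadjusted p under 0.05. Leaving out EV+ replicate 2 from the common estimate of the spread brought Atp5e (adjusted p 0.0946) and Ndufa7 (adjusted p 0.0877) under the limma threshold (background 4.31%), against ranges over all alternatives of 0.0946 to 0.818 and 0.0877 to 0.772.

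EV+ macrophages were then compared with GN macrophages from nephritic rats without ASCs. None of the 72 members passed the test (background 0.122%), and none had an unadjusted p under 0.05 by limma or edgeR (1 by DESeq2), against 7.13% of all genes. Yet 67 members had lower means in EV+, against 52.8% of all genes, with a median of -0.11. In the same comparison 76 of the 79 cytosolic ribosomal protein genes were lower (median -0.14, none called) and so were all 10 dissociation genes (median -0.98, 2 called), and their part was not tested. The medians of the members were -0.10 for complex I, 7.4e-05 for complex II, -0.13 for complex III, -0.14 for complex IV and -0.13 for complex V. This direction rested on 1 library: without EV+ replicate 2, 35 members were lower and 37 higher, with a median of 0.0014, while without EV+ replicate 1 the median was -0.18. All EV+ libraries were below both GN libraries for 8 members and above them for 2, against 11.8% and 11.2% of all genes. The extremes were Ndufb2 (-0.22) and Ndufs1 (0.20) in complex I, Sdhc (-0.024) and Sdha (0.063) in complex II, Uqcr10 (-0.21) and Uqcrfs1 (-0.065) in complex III, Cox7c (-0.21) and Cox7b (-0.056) in complex IV, and Atp5i (-0.30) and Atp5a1 (0.077) in ATP synthase.

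For EV- against GN, no member passed the test (background 0.378%), and 2 had an unadjusted p under 0.05, against 7.85% of all genes. These were Cox7a2l (-0.21 ± 0.085, adjusted p 0.558) and Uqcrc2 (-0.18 ± 0.081, adjusted p 0.601), a core protein of complex III with 156 and 151 CPM in GN and 128, 143 and 135 in EV-. Neither gene's groups overlapped. Means were lower for 59 members, against 49.9% of all genes, with a median of -0.0705. In the same comparison all 14 natural killer and T cell markers had higher means (median 2.21, none called), all 10 dissociation genes lower ones (median -0.71, 2 called), 1 of 13 macrophage markers, Vcam1, was called lower, and 68 of the 79 cytosolic ribosomal protein genes were lower (median -0.073, none called). Their part was not tested. The direction was kept when any 1 library was left out (medians from -0.11 to -0.032), with 49 members lower without EV- replicate 2. All EV- libraries were below both GN libraries for 21 members and above them for 0, against 12.8% and 12.6% of all genes. Medians by complex were -0.057 (complex I), -0.061 (complex II), -0.082 (complex III), -0.074 (complex IV) and -0.10 (complex V). The remaining extremes were Ndufa2 (-0.23) and Ndufa12 (0.089) in complex I, Sdha (-0.072) and Sdhb (-0.0075) in complex II, Uqcrq (0.022) in complex III, Cox7b (-0.054) in complex IV, and Atp5i (-0.26) and Atp5a1 (0.040) in ATP synthase.

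EV+ and EV- libraries were compared for the question of EV uptake within ASC-treated nephritic rats. Transcripts of natural killer and T cells, and 3 of 5 B cell markers, also differed between these groups, with none called. No member passed the test, against 0.0222% of all genes (2 genes), and 1 member, Ndufs1, had an unadjusted p under 0.05, against 4.57% of all genes. Means were lower in EV+ for 50 members and higher for 22, against 52.6% of all genes lower, with a median of -0.036. Without EV+ replicate 2 the direction turned, with 61 members higher, 11 lower and a median of 0.086. Without EV- replicate 3, 39 were higher and 33 lower (median 0.0056), and without both second EV libraries, 53 were higher and 19 lower (median 0.039). Without EV+ replicate 1 or EV- replicate 2 the median was -0.10 or -0.084, without EV+ replicate 3 it was -0.072, and without EV- replicate 1 it was -0.014.

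Ndufs1 was 1.20-fold higher in EV+, at 83.2 ± 7.39 CPM (SD, n = 3) against 69.4 ± 8.46 CPM (SD, n = 3). The lowest EV+ library (78.0 CPM) was below the highest EV- library (79.1 CPM), so the groups overlapped. Between libraries of equal number EV+ was higher in 3 of 3. No label pairs these libraries, and the pairing was drawn from these same data, so this count and the block fits below lend no separate support. The log2 fold change was 0.26 ± 0.10 with an adjusted p of 0.9997. With the replicate number as a block the limma adjusted p was 0.931 in the fit of all libraries and 0.262 when control and GN were left out of the fit, and over the 20 alternatives it ranged from 0.262 to 1.0. That last fit had 3 members at an unadjusted p under 0.05 and called 0. The groups did not overlap for 4 members only. Cox7a2l and Ndufs3 were higher in every EV+ library (against 4.25% of all genes), and Ndufs5 and Ndufs6 were lower in every one (against 4.65%). For Cox7a2l the nearest libraries stood at 134.9 CPM (EV+) and 134.7 CPM (EV-), so its separation was very small. Ndufs3, a core subunit of complex I, had 43.6, 41.6 and 42.3 CPM in EV+ and 40.9, 40.3 and 40.2 in EV-. In an exact two-sided permutation test, 3 against 3 libraries cannot go below p = 0.1, which any gene without overlap reaches, so that test adds nothing to the lack of overlap. Ndufs5 and Ndufs6 were below 6 CPM, and their differences in CPM were small.

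Medians by complex were -0.039 (complex I), 0.057 (complex II), -0.042 (complex III), -0.015 (complex IV) and -0.034 (complex V). The other extremes were Ndufa12 (-0.21) in complex I, Sdhb (-0.0086) and Sdha (0.14) in complex II, Uqcrq (-0.18) and Uqcrc1 (0.023) in complex III, Cox7c (-0.11) and Cox7a2l (0.13) in complex IV, and Atp5e (-0.14) and Atp5g2 (0.046) in ATP synthase. The precision was higher here than in the other comparisons. The 95% interval lay within 1 log2 unit of 0 for all 72 members and within 0.5 units for 66, and its median half-width was 0.238.

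The libraries also held transcripts of other cells. The 14 markers of natural killer and T cells summed to 832, 121 and 62.6 CPM in EV- and to between 21.1 and 46.1 CPM in the other libraries, and all 14 had higher means in EV- than in EV+, with none past the threshold; 1 was called higher in EV- than in control. The T cell gene Cd3e was at 0 in 6 of the 10 libraries and at 2.09 CPM in replicate 1 of EV-. In that library the mean deviation of the members was 0.000116. Summed markers of B cells lay between 46.1 and 113 CPM, of neutrophils between 550 and 744 CPM, of dendritic cells between 28.4 and 40.2 CPM, of cycling cells between 5.14 and 17.2 CPM, and the erythroid marker Hbb between 1.0 and 5.25 CPM. Of the 5 B cell markers, 3 were higher in every EV+ library than in any EV- library (60%, against 4.25% of all genes). The other 2 had lower means in EV+, the median log2 fold change was 0.70, and none was called. The part of these cells in the values was not tested.

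Several subunits exist as isoforms. Of the pair Cox6a1 and Cox6a2, the form known as ubiquitous, Cox6a1, had 434 ± 33.1 CPM in control (SD, n = 2), 418 ± 20.9 in GN (n = 2), 376 ± 64.4 in EV+ (n = 3) and 397 ± 23 in EV- (n = 3). The heart and muscle form Cox6a2 was between 1.09 and 2.89 CPM in all libraries. The 3 genes for the c subunit of the ATP synthase rotor, which encode the same mature protein, were all measured. Atp5g1 spanned 56.0 to 86.0 CPM, Atp5g2 171 to 210 CPM and Atp5g3 91.9 to 123 CPM, with log2 fold changes of EV+ against control of -0.077, -0.091 and -0.041. Cox7a2 ran from 101 to 157 CPM, Cox8a from 131 to 192 CPM and Ndufa4 from 35.1 to 49.0 CPM. Replicate 2 of EV+ was the lowest library for each of these 6 genes. Many of these families have processed pseudogenes, and reads shared with near-identical copies could have been lost or split in counting.

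Some members hardly varied. Ndufv1, which binds NADH at the entry of complex I, lay between 114 and 133 CPM over all 10 libraries, and Ndufv3 between 45.6 and 52.3 CPM. Uqcrc1 spanned a ratio of 1.17 between its highest and lowest library, and so did Atp5b. The widest ratio among members of at least 5 CPM was that of Atp5i (2.22), from 11.1 CPM in replicate 2 of EV+ to 24.7 CPM in replicate 2 of control. Mean levels over the libraries ran from Ndufs6 (1.05 CPM) to Ndufa9 (171 CPM) in complex I, from Sdhb (166 CPM) to Sdhd (232 CPM) in complex II, from Uqcrh (45.4 CPM) to Uqcrc1 (355 CPM) in complex III, from Cox6a2 (1.69 CPM) to Cox6a1 (402 CPM) in complex IV, and from Atp5s (1.19 CPM) to Atp5b (862 CPM) in ATP synthase, with no correction for length.

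Among other core members, Ndufs7, Ndufs8 and Ndufv2, which with Ndufs1 and Ndufv1 hold the redox centres of complex I, had group means of 110 to 122, 68.6 to 71.0 and 67.1 to 71.7 CPM. Uqcrfs1 had group means of 211 to 227 CPM and Cox4i1 of 131 to 143 CPM. Cox5a lay between 112 and 153 CPM. None of these genes passed the test.

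The other genes of the pathway were also mostly without calls. Of 5 subunits and carriers that the symbol rule does not match, none passed the test in any comparison. Cytochrome c (Cycs) had group means between 88.4 and 92.8 CPM, and cytochrome c1 (Cyc1), the haem subunit of complex III, between 116 and 124 CPM. Ndufab1, the acyl carrier protein of complex I, was at 35.9 ± 5.37 CPM in control (SD, n = 2) and 28.3 ± 3.28 CPM in EV+ (SD, n = 3), a log2 fold change of -0.33 with an adjusted p of 0.313.

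Of 39 assembly factors, 1 passed in 1 comparison, GN against control, where 1.75% of all genes were called. It was Ndufaf7, a methyltransferase needed for complex I assembly, at 174 and 169 CPM in GN and 140 and 130 CPM in control. Its log2 fold change was 0.35, with a limma adjusted p of 0.0772. Of the 64 mitochondrial ribosomal proteins, Mrpl1 alone passed, in the comparisons of GN, EV+ and EV- with control (backgrounds 1.75%, 3.63% and 2.84%). With 1 gene called, neither list stood apart from these shares. Mrpl1 stood at 147 and 154 CPM in control and at 116 and 110 CPM in GN. Its log2 fold changes against control by limma were -0.41 in GN (adjusted p 0.0663), -0.40 in EV+ (adjusted p 0.0255) and -0.40 in EV- (adjusted p 0.0320). All 8 libraries of nephritic rats, between 103.5 and 121.6 CPM, were below the controls.

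The 15 regulators of mitochondrial transcription and biogenesis gave no call. Tfam, which packages and transcribes mitochondrial DNA, had group means between 29.4 and 35.1 CPM, Nrf1 between 32.3 and 36.6 CPM and Gabpa, an ETS factor, between 57.2 and 60.2 CPM. Esrra had 37.2 ± 1.68 CPM in control and 30.5 ± 2.95 CPM in EV+ (SD, n = 2 and 3), with a log2 fold change of -0.28 and an adjusted p of 0.302. The coactivator Ppargc1b was low, at 3.53 ± 1.60 CPM in control, 5.63 ± 1.47 in EV+ and 5.91 ± 1.68 in EV-, with log2 fold changes against control of 0.57 and 0.63 and adjusted p-values of 0.374 and 0.370.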

How the data were processed

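The authors aligned paired-end reads of SMART-Seq v4 and Nextera XT libraries with STAR (version 2.5.3) to rn6, counted them on RefSeq genes with HTSeq (version 0.6.0), removed genes with a maximum under 1 CPM and applied TMM normalization in edgeR. The deposited table holds this normalized signal for 9003 genes, of which 18 symbols had been turned into dates. All values (100%) were whole reads within 0.02 reads when divided by the worth of 1 read, so counts could be recovered. Replicates differed by more than sampling noise, with chi-square per degree of freedom between 13.4 and 45.4.

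limma (version 3.58.1) was run in R (version 4.3.3) on log2 of CPM plus 1, with 1 fit of all 10 libraries, an intensity trend, 6 residual degrees of freedom and Benjamini-Hochberg adjustment over all genes. The edgeR quasi-likelihood test (edgeR version 4.0.16) and DESeq2 (version 1.42.0) were run on the recovered reads as alternatives. Genes were named by rule: members past the threshold, the extremes of each complex in each comparison at a mean of at least 5 CPM, the ends of the range of levels, isoform families, core subunits, and genes of the other pathway lists past the threshold with a few fixed ones. Members near the threshold, with no overlap between groups or with the least or most variation were added after their values were seen. The members and lists were chosen with earlier results of these data known. Replicate numbers of EV+ and EV- were taken as pairs after the correlations of deviations from the group means were seen. For libraries of equal number r was 0.203, 0.295 and 0.122, and for unequal numbers it was between -0.229 and -0.0129. For control and GN of equal number it was 0.0878. Deviations of 2 or 3 libraries from their own mean are not independent, and no test of r was made. These values therefore do not establish pairs, and the labels name no shared animal. Human reads from transferred vesicles that align to the rat genome were not tested. Floors cover counting error only. The values of 1 member are counted in the lists but not reported here.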

Additional observations from a re-analysis of the deposited data

How the results depend on the processing

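In all 6 comparisons, 0 members passed under RLE scaling, a pseudocount of 0.1, no intensity trend, a fit of only the groups compared, edgeR's quasi-likelihood test or an FDR of 0.05. For EV+ against control, 1 member passed with genes of at least 5 CPM, 5 with DESeq2, and 0 to 3 when 1 library was left out; for EV- against control, 0 to 2 passed when 1 library was left out. The cause was not tested. With 2 or 3 libraries a group, the median half-width of the 95% interval was 0.292 log2 units for GN against control and 0.238 for EV+ against EV-.

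With the replicate number as a block, 2 members passed for EV+ against control, and Uqcrq in EV- against GN turned to -0.06692. In this pairing of libraries the medians of the members were -0.0077 (GN against control), -0.137 (EV+ against control), -0.108 (EV- against control), -0.151 (EV+ against GN), -0.116 (EV- against GN) and -0.0359 (EV+ against EV-).

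Leaving out both second EV libraries, chosen after seeing the data, turned the log2 fold change of Cox7b to 0.1351 (EV+ against control), 0.07634 (EV- against control), 0.09577 (EV+ against GN) and 0.03706 (EV- against GN). It also turned Uqcrb to 0.02558 (EV- against control), Sdhc to 0.026 (EV+ against GN), and Sdhb to 0.06715 and Cox7c to 0.02218 (EV+ against EV-).

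With 1 library left out at a time, these log2 fold changes crossed 0. Cox7b ranged from -0.09929 to 0.1778 (GN against control), -0.1553 to 0.1351 (EV+ against control), -0.1529 to 0.1242 (EV- against control), -0.1903 to 0.09577 (EV+ against GN) and -0.1465 to 0.03925 (EV- against GN). Uqcrc2 ranged from -0.1055 to 0.0298 (EV+ against control), Uqcrb from -0.1098 to 0.02558 (EV- against control) and Sdhc from -0.07944 to 0.02931 (EV+ against GN). For EV- against GN the ranges were -0.02735 to 0.275 (Ndufa12), -0.1549 to 0.02394 (Sdha), -0.06171 to 0.05237 (Sdhb) and -0.04755 to 0.06593 (Uqcrq). For EV+ against EV- they were -0.06839 to 0.06155 (Sdhb), -0.2886 to 0.04351 (Uqcrq), -0.01157 to 0.07068 (Uqcrc1), -0.2256 to 0.09187 (Cox7c) and -0.2662 to 0.03486 (Atp5e).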
